A study of Sus scrofa with 12 samples.

Results

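The circadian clock genes of the piglet jejunum are described here across maternal diet and weaning. The 10 genes listed for this purpose were CLOCK, ARNTL, NPAS2, PER1, PER2, PER3, CRY1, CRY2, NR1D1 and DBP. Rows carrying one of these symbols as gene name were found for 3 of the 10, PER1, CRY1 and CRY2, among 17049 gene names in the table. A further 5 were found under their pig Ensembl identifiers: CLOCK (ENSSSCG00000008909), ARNTL (ENSSSCG00000013397, whose current symbol is BMAL1), NPAS2 (ENSSSCG00000008171), PER2 (ENSSSCG00000016338) and DBP (ENSSSCG00000003148). PER3 and NR1D1 matched no row by symbol or identifier and were not analysed here. The clock genes measured are therefore 8 of 10, and 7 of them passed a minimum mean of 0.5 FPKM (sequenced fragments divided by exon length and library size). CLOCK, with a mean of 0.286 FPKM over the 12 libraries, did not.

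The molecular clock is a loop of transcription factors that runs in nearly every cell. A heterodimer of ARNTL with CLOCK, or with its paralog NPAS2, activates the PER and CRY genes, whose proteins then repress that heterodimer, and it also activates DBP and the nuclear receptor gene NR1D1, whose product represses ARNTL. ARNTL transcripts and those of DBP and the PER genes therefore peak at different hours of the day, and a level taken at a single hour is a point on a curve. In the intestine feeding time sets the phase of this loop, and PER1 is also induced directly by glucocorticoids and by cAMP signalling.

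Jejunum was sequenced from 12 pigs in 4 groups of 3: W_Con and W_Res were killed at 21 days of age, on the day of weaning, and PW_Con and PW_Res at 28 days, 7 days after it. The sows of W_Res and PW_Res received 300 mg/kg resveratrol, a plant polyphenol, from early gestation through lactation, and those of W_Con and PW_Con none. The sample records describe Landrace semen and cross-fostering within a diet, whereas the study's methods, written for the control piglets, describe Yorkshire × Duroc litters from which males were taken. The methods place the 21-day collection in the morning and give no hour for the 28-day collection, and no hour is given for any single piglet. Age, the change of diet at weaning and the hour of collection therefore cannot be told apart in the weaning comparisons, and the part of collection hour in the resveratrol comparisons was not tested.

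The libraries summed to between 313171 and 334469 FPKM, and the table holds no read counts, so that the depth behind a single gene is unknown. Library W_Res2 stood apart, with a median Pearson's r of 0.881 with the other libraries across genes against 0.906 to 0.938 for the rest. Smooth muscle markers (5 measured, MYH11 not matched, none at 0 in all libraries) summed to 1756, 3855 and 644 FPKM in W_Res and to 148 to 621 FPKM in W_Con. Lymphocyte markers (7 measured) summed to 27.6 to 49.5 FPKM in W_Res and 96.0 to 138 FPKM in W_Con. Enterocyte markers (6 measured, ALPI and LCT not matched) summed to 2754 to 9326 FPKM in all 12 libraries, with APOB alone at 0.363 to 6.85 FPKM. Markers of the distal small intestine, FABP6, SLC10A2 and GUCA2B, summed to 28.2 to 60.2 FPKM in W_Con3, W_Res2, PW_Res2 and PW_Res3. Their sum was 210 FPKM in W_Res1 and 1432 to 24623 FPKM in the other libraries. In whole tissue, fewer cells of a type and less RNA per cell cannot be told apart.

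**Figure D1:**
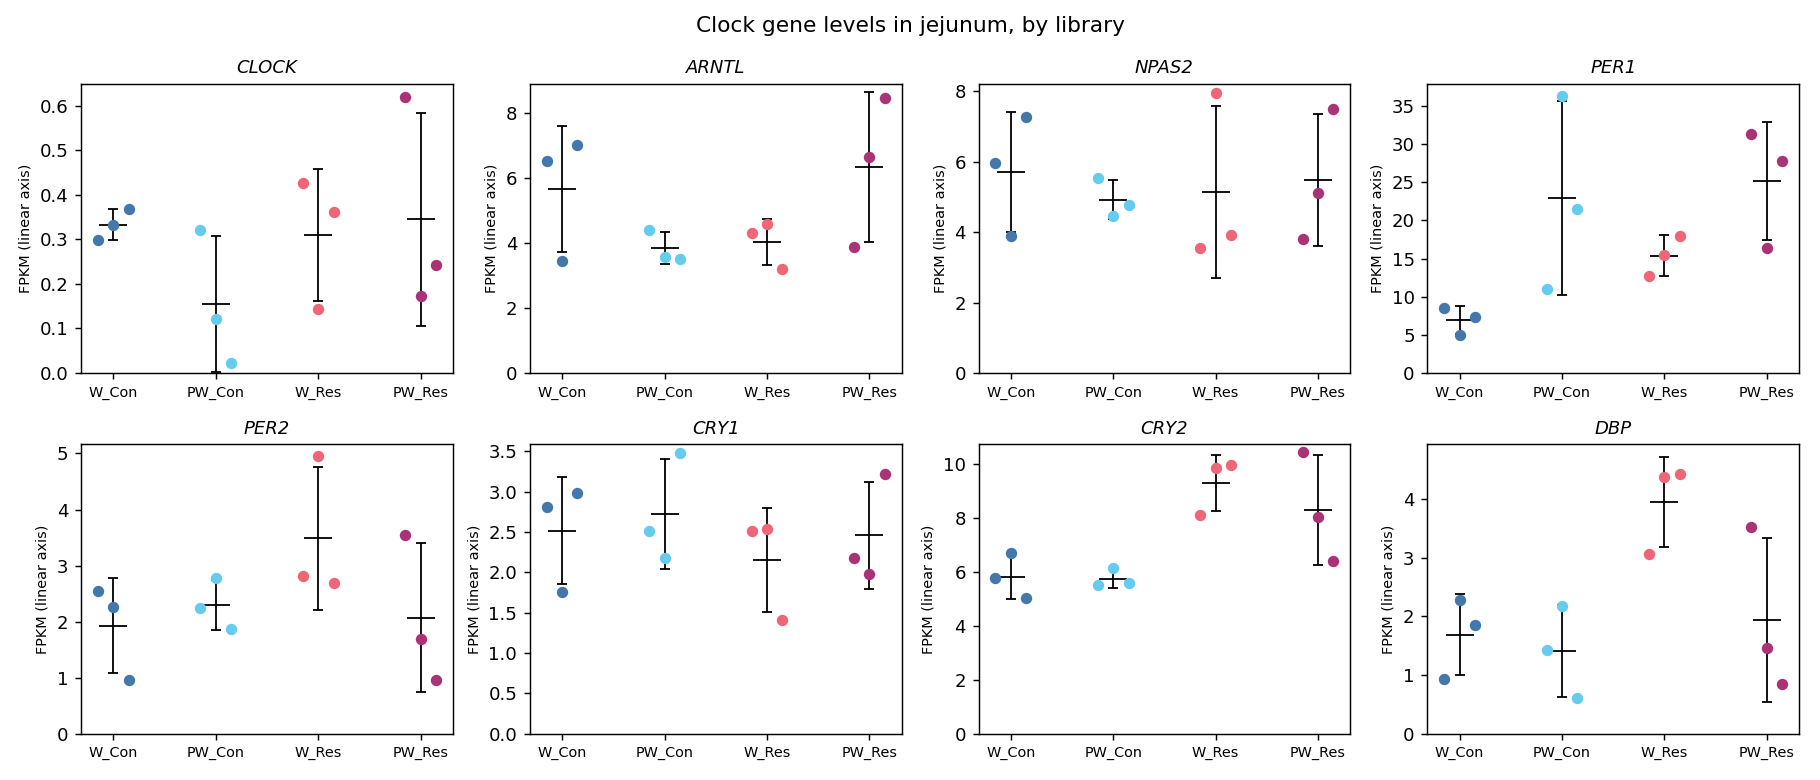
FPKM of 8 clock genes (vertical axes, linear, from 0) in the 3 libraries of each group (horizontal axes). Points are libraries and bars give the mean with 1 SD. PER1 was at 5.02 to 8.53 FPKM in W_Con and at 11.0 FPKM or more in every other library, and CRY2 was higher in both resveratrol groups than in the control group of the same age.

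Among the activators, CLOCK was close to the limit of the table. It was listed at 0.298, 0.333 and 0.368 FPKM in W_Con, 0.322, 0.122 and 0.0212 in PW_Con, 0.427, 0.143 and 0.361 in W_Res, and 0.619, 0.172 and 0.243 in PW_Res. These ranges overlapped throughout, and the filter on low FPKM kept CLOCK out of the comparisons between groups. NPAS2, the paralog that can take the place of CLOCK, was at 5.96, 3.88 and 7.26 FPKM in W_Con, 5.54, 4.46 and 4.77 in PW_Con, 3.56, 7.96 and 3.91 in W_Res and 3.81, 5.10 and 7.51 in PW_Res. On the FPKM scale, which is per length of transcript, NPAS2 exceeded CLOCK in all 12 libraries. Its 4 groups overlapped, and its log2 fold changes ranged within 0.16 of 0 in the 4 comparisons of single groups.

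ARNTL, the obligate partner of both, was at 6.53, 3.43 and 7.00 FPKM in W_Con and at 4.39, 3.57 and 3.52 in PW_Con. In the resveratrol litters it was at 4.29, 4.58 and 3.21 FPKM in W_Res and at 3.88, 6.63 and 8.45 in PW_Res. The groups overlapped at both steps. The log2 fold change with weaning was -0.42 in control litters (SE 0.28, adjusted p = 0.529 in limma) and 0.50 in resveratrol litters (SE 0.28, adjusted p = 0.380 in limma), so that neither passed a test on its own. Both depended on single libraries, at -0.69 without W_Con2 and -0.26 without W_Con3 in control litters, and at 0.77 without PW_Res1 and 0.29 without PW_Res3 in resveratrol litters. The unadjusted P was under 0.05 without W_Con2 in the former, and without PW_Res1 or with median-of-ratios (0.68) or quantile (0.70) scaling in the latter.

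PER1, a repressor and an immediate target of the activators, had the widest range of the clock genes in FPKM. In W_Con it was at 8.53, 5.02 and 7.31 FPKM, in PW_Con at 11.0, 36.4 and 21.5, in W_Res at 12.7, 15.5 and 18.0 and in PW_Res at 31.3, 16.4 and 27.8. The means were 6.95 ± 1.78 FPKM in W_Con, 23.0 ± 12.8 in PW_Con, 15.4 ± 2.64 in W_Res and 25.2 ± 7.79 in PW_Res (SD, n = 3 each). All 3 libraries of W_Con lay below the other 9 libraries. The row named PER1 joins 10 assembled transcripts, 4 of them with an Ensembl identifier, so that reads of neighbouring transcripts may be counted in it.

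PER2, the other repressor of this family that was measured, was at 2.55, 2.26 and 0.960 FPKM in W_Con, 2.24, 2.77 and 1.87 in PW_Con, 2.81, 4.95 and 2.69 in W_Res and 3.55, 1.70 and 0.961 in PW_Res. The W_Res libraries lay above those of W_Con, and the groups overlapped in the other 3 comparisons of single groups.

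The cryptochromes, which bind the PER proteins and carry most of the repression, differed from each other. CRY2 was at 5.76, 6.69 and 5.01 FPKM in W_Con, 5.53, 6.14 and 5.59 in PW_Con, 8.11, 9.86 and 9.94 in W_Res and 10.5, 8.02 and 6.40 in PW_Res. At each age, the 3 resveratrol libraries lay above the 3 control libraries. CRY1 was at 2.81, 1.75 and 2.99 FPKM in W_Con, 2.51, 2.17 and 3.48 in PW_Con, 2.51, 2.53 and 1.40 in W_Res and 2.18, 1.98 and 3.21 in PW_Res, and its groups overlapped in every comparison.

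DBP, an output gene of the clock that encodes a PAR-domain leucine zipper factor, was at 0.926, 2.28 and 1.86 FPKM in W_Con, 1.44, 2.18 and 0.608 in PW_Con, 3.06, 4.37 and 4.43 in W_Res and 3.52, 1.45 and 0.843 in PW_Res. W_Res was the group with the highest DBP, and only PW_Res1 of the other 9 libraries reached its range.

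The weaning comparison in control litters (PW_Con against W_Con) was made in limma on log2(FPKM + 1) over 12886 gene names. The study's standard is an unadjusted P under 0.05 with a log2 fold change above 1 or below -1. It was met by 1 of the 7 clock genes, against 3.1% of all gene names (1.36% higher and 1.74% lower). An unadjusted P under 0.05 was reached by the same gene, against a background of 15.3% (8.11% higher, 7.21% lower), and groups without overlap were seen for it alone, against 24.9% (12.5% higher, 12.4% lower). That gene was PER1, with a log2 fold change of 1.47 (SE 0.38, adjusted p = 0.12 in limma). Of the 6 enterocyte markers 5 were lower and 1 higher in the same contrast, FABP2 (-2.20) and APOB (-1.23) lower at the standard and without overlap. Of the 7 lymphocyte markers 4 were lower and 3 higher, with a median of -0.45. CD79B (2.05) was higher at the standard and without overlap, at 2.25, 37.5 and 3.29 FPKM in PW_Con. All 3 distal, all 3 neuron and all 5 smooth muscle markers were higher, none with an unadjusted P under 0.05. Of the 5 crypt markers tested 4 were higher and 1 lower, MKI67 (0.52) higher without overlap. The part of these markers in the PER1 difference was not tested. No gene name in the table had an adjusted p under 0.05 (0%), while 1974 had an unadjusted P under 0.05. The log2 fold changes of all 7 clock genes ran from -0.42 to 1.47 with a median of -0.01, and the median over all gene names was -0.01. PER1 met the standard with each library left out in turn, at 1.07 to 1.89. With the Ballgown linear model, named after the tool the study used, its unadjusted P was above 0.05.

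In resveratrol litters (PW_Res against W_Res), 0 of the 7 clock genes met the standard, against 4.94% of all gene names (0.986% higher, 3.95% lower). An unadjusted P under 0.05 in limma was reached by 1, against 17.6% (3.4% higher, 14.2% lower), and 0 had groups without overlap, against 21.7% (3.98% higher, 17.7% lower). Adjusted p under 0.05 was reached by 0% of gene names. The 1 gene was DBP, which was lower after weaning with a log2 fold change of -0.84 (SE 0.36, adjusted p = 0.253 in limma), while PW_Res1 overlapped with W_Res. Its unadjusted P was above 0.05 without W_Res2, W_Res3, PW_Res2 or PW_Res3 (-0.56 without the last), with a pseudocount of 0.1, with median-of-ratios scaling (-0.69) and with quantile normalization (-0.55), and the Ballgown model gave a log2 fold change of 0.048. In this contrast the smooth muscle markers summed to 192 to 619 FPKM in PW_Res, below the 644 to 3855 FPKM of W_Res, with 4 of 5 lower at the standard, and 2 of 3 enteric neuron markers were lower at the standard. Of the 6 enterocyte markers 4 were higher and 2 lower, VIL1 (0.85) higher without overlap and with an unadjusted P under 0.05. The part of these markers in the DBP difference was not tested. PER1 had a log2 fold change of 0.64 (SE 0.38, adjusted p = 0.402 in limma), and its 95% interval, from -0.19 to 1.46, includes 0 and almost reaches the value of the control litters. The weaning comparisons of the litter sets share no library.

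Averaged over both litter sets, PER1 was again the 1 clock gene of 7 past the standard, against 1.42% of all gene names (0.737% higher, 0.683% lower), and the 1 with an unadjusted P under 0.05, against 19% (6.57% higher, 12.5% lower). Its log2 fold change was 1.05 (SE 0.27, adjusted p = 0.101 in limma). An adjusted p under 0.05 was reached by 10 gene names (0.0776%), none of them a clock gene. PER1 kept an unadjusted P under 0.05 without W_Con2, W_Res1, PW_Con2 or PW_Res1, where its log2 fold change was 0.96, 0.99, 0.85 and 0.96 and so inside the fold limit. The other 6 clock genes lay between -0.51 and 0.11. In the same contrast 5 of the 6 enterocyte markers were lower and 1 higher, with FABP2 (-1.31) lower at the standard. All 3 neuron markers were lower, UCHL1 (-0.65) with an unadjusted P under 0.05. All 5 smooth muscle markers were lower and all 3 distal markers higher, none with an unadjusted P under 0.05. Of the 5 crypt markers tested 4 were higher and 1 lower, and of the 7 lymphocyte markers 3 were higher and 4 lower. The part of these markers in the PER1 difference was not tested.

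**Figure D2:**
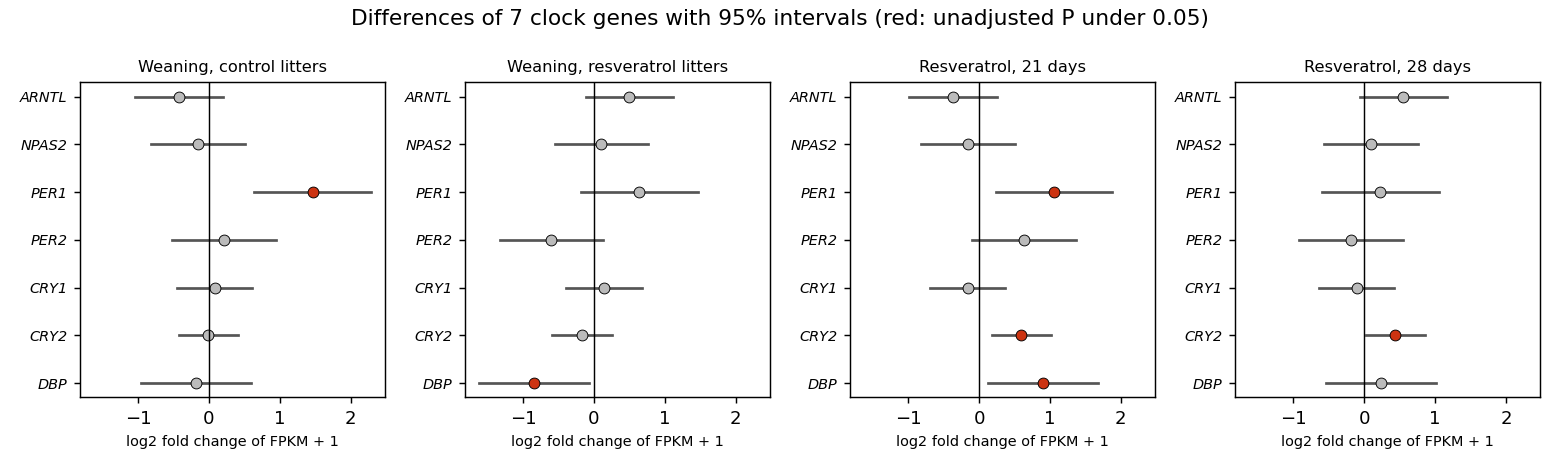
Log2 fold change of FPKM + 1 (horizontal axes) of 7 clock genes (vertical axes) in the 4 comparisons of single groups, with 95% intervals from limma. Red points have an unadjusted P under 0.05: PER1 in weaning of control litters, DBP in weaning of resveratrol litters, PER1, CRY2 and DBP between diets at 21 days and CRY2 at 28 days.

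Maternal resveratrol was compared with control at 21 days (W_Res against W_Con). Of the 7 clock genes, 3 had an unadjusted P under 0.05 in limma, all higher in W_Res, against 18.5% of all gene names (13% higher, 5.45% lower). Groups without overlap were seen for 4, all higher in W_Res, against 21% (13.8% higher, 7.26% lower), and 1 met the standard, against 4.77% (3.34% higher, 1.44% lower). The median log2 fold change was 0.60 over the 7 clock genes and 0.08 over all gene names. An adjusted p under 0.05 was reached by 0.0466% of gene names and by no clock gene.

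The 4 genes were the repressors PER1, PER2 and CRY2 and the output gene DBP. PER1 had a log2 fold change of 1.06 (SE 0.38, adjusted p = 0.178 in limma) and met the standard, except without W_Con2 (0.87) or W_Res3 (0.95), where P was also above 0.05, and after median-of-ratios rescaling (0.96). CRY2 had a log2 fold change of 0.60 (SE 0.19, adjusted p = 0.150 in limma), and its P stayed under 0.05 with each library left out in turn. DBP had a log2 fold change of 0.90 (SE 0.36, adjusted p = 0.209 in limma), with a P above 0.05 without W_Con1, W_Res2 or W_Res3. It met the standard with a pseudocount of 0.1 (1.25) and in 2 of the 12 fits without 1 library. PER2 had a log2 fold change of 0.63 (SE 0.33, adjusted p = 0.337 in limma) and did not pass, although its groups did not overlap, and 0.36 without W_Con3, 0.41 without W_Res2 and -0.032 in the Ballgown model. In the Ballgown linear model the unadjusted P of PER1, CRY2 and DBP was above 0.05. The activators ARNTL and NPAS2 and the repressor CRY1 had log2 fold changes of -0.37, -0.16 and -0.16, with overlapping groups, and those of NPAS2 and CRY1 changed sign without 1 library.

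The same contrast is the one in which smooth muscle and lymphocyte markers did not overlap between groups, and in which all 6 enterocyte markers were lower in W_Res, APOB (-1.29, at the standard) and VIL1 (-0.76) without overlap, and all 3 neuron markers were higher, UCHL1 (0.89) with an unadjusted P under 0.05. The part of these markers in the differences was not tested. With W_Res1 as the only library of its group, the alternative that leaves out the libraries with the most FPKM in unnamed loci (8.47% in W_Res2 and 8.02% in W_Res3, against 5.48% to 6.81% in the others), the log2 fold changes were 0.81 for PER1, 0.42 for CRY2 and 0.63 for DBP, each with an unadjusted P above 0.05 in limma, where the lone library is assumed to vary like the other groups. The directions were those of the full groups.

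At 28 days (PW_Res against PW_Con), 0 of the 7 clock genes met the standard, against 1.55% of all gene names (0.652% higher, 0.9% lower). CRY2 alone had an unadjusted P under 0.05, against 7.76% (2.51% higher, 5.25% lower), and was the 1 clock gene whose groups did not overlap, against 17.2% (5.4% higher, 11.8% lower). Adjusted p under 0.05 was reached by 0% of gene names. CRY2 was higher in PW_Res with a log2 fold change of 0.44 (SE 0.19, adjusted p = 0.629 in limma), and 0.28 without PW_Res1. Its unadjusted P was above 0.05 without PW_Res1, W_Con1, PW_Res2 or any library of PW_Con. In the same contrast all 7 lymphocyte markers were lower in PW_Res, CD79B (-1.48) and MS4A1 (-1.06) without overlap and CD3E (-0.93) with an unadjusted P under 0.05. The crypt marker TOP2A (-1.11, at the standard) and the enterocyte marker ANPEP (-1.25) were lower without overlap. Of the 5 crypt markers tested 3 were lower and 2 higher, and of the 6 enterocyte markers 3 were lower and 3 higher. All 3 distal, all 3 neuron and all 5 smooth muscle markers were lower, with overlapping groups and none with an unadjusted P under 0.05. FABP6 was at -6.83 and SLC10A2 at -2.23. The part of these markers in the CRY2 difference was not tested. PER1, DBP and PER2 had log2 fold changes of 0.23, 0.24 and -0.18 at this age, which changed sign, in that order, without PW_Con1, without PW_Res1 or PW_Con3 and without PW_Res3. ARNTL had a log2 fold change of 0.55 (SE 0.28, adjusted p = 0.663 in limma) with overlapping groups, and it was 0.82 without PW_Res1 (unadjusted P under 0.05), 0.34 without PW_Res3 and -0.0076 in the Ballgown model. The comparisons at 21 and at 28 days share no library, but each shares its groups with the weaning comparisons.

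The difference of the weaning effect between the litter sets was tested as an interaction. It had an unadjusted P under 0.05 for 1 of the 7 clock genes, against 13.7% of all gene names (3.31% higher, 10.4% lower), and met the standard for 0, against 7.76% (1.81% higher, 5.95% lower), with 0% under an adjusted p of 0.05. The gene was ARNTL, whose log2 fold change with weaning was 0.92 higher in resveratrol than in control litters (SE 0.40, adjusted p = 0.341 in limma). The P lay above 0.05 without W_Con1, W_Con3, W_Res1, W_Res3, PW_Con2, PW_Con3, PW_Res2 or PW_Res3, in the Ballgown model (0.68) and with the replicate block. With W_Res1 alone in its group the difference was 0.84. ARNTL met the standard with a pseudocount of 0.1 (1.08), with median-of-ratios (1.09) or quantile (1.11) scaling and in 4 of the 12 fits without 1 library. The difference for PER1 was -0.83 (SE 0.53, adjusted p = 0.501 in limma), so that the weaning effects on PER1 are not shown to differ between litter sets. The libraries with the highest ARNTL, PW_Res3, W_Con3 and PW_Res2, were among the 4 whose distal markers summed to 28.2 to 60.2 FPKM. The remaining library of these 4, W_Res2, was at 4.58 FPKM of ARNTL. W_Con1, at 6.53 FPKM of ARNTL, had 8248 FPKM of the distal markers. In the same contrast 4 of the 5 smooth muscle markers met the standard, at -3.27 (DES) to -2.77 (TAGLN). So did UCHL1 of the neuron list at -1.60, CD79B of the lymphocyte list at -2.33 and APOB of the enterocyte list at 1.48. Of the 7 lymphocyte markers, 4 had a positive difference and 3 a negative one, with a median of 0.39. The 6 enterocyte markers were 5 positive and 1 negative. All 5 smooth muscle, all 3 neuron and all 3 distal markers were negative, no distal marker with an unadjusted P under 0.05. The part of these markers in the ARNTL difference was not tested.

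Ratios within a library compare output and activator without the scaling of that library. The log2 ratio of DBP to ARNTL was -0.48 to 0.46 in W_Res, the group in which both genes were at similar FPKM, against -2.82 to -0.59 in W_Con. It was -2.53 to -0.71 in PW_Con and -3.33 to -0.14 in PW_Res, the latter overlapping with W_Res through PW_Res1. The log2 ratio of PER1 to ARNTL was 0.063 to 0.55 in W_Con and 1.57 to 2.49 in W_Res. It was 1.32 to 3.35 in PW_Con and 1.31 to 3.01 in PW_Res, so that W_Con was the lowest group without overlap with any other. W_Con also had the lowest PER1 itself, so this ratio is not separate from the PER1 levels. PER1 was taken for this ratio after NR1D1 was not matched, and the share of other genes with such a separation was not computed.

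**Figure D3:**
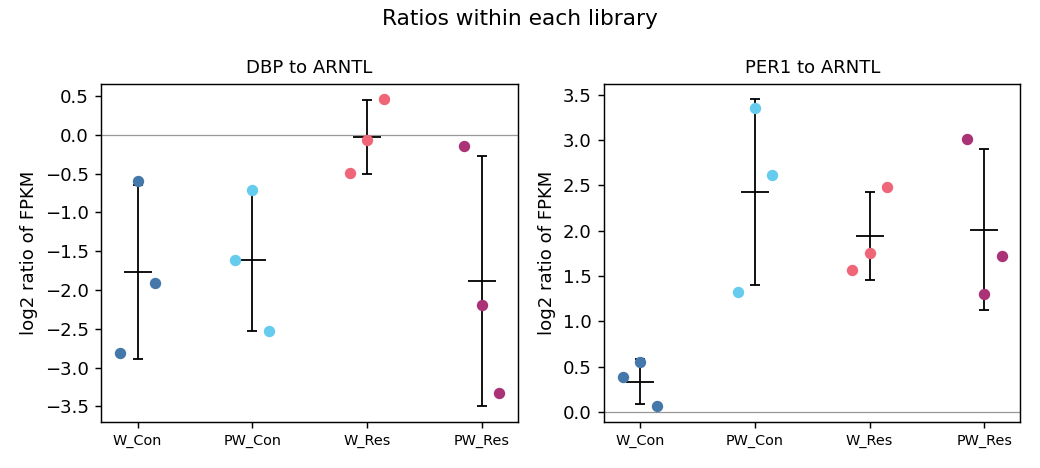
Log2 ratio of FPKM (vertical axes) of DBP to ARNTL and of PER1 to ARNTL within each of the 12 libraries, by group (horizontal axes). Points are libraries and bars give the mean with 1 SD. The ratio of DBP to ARNTL was highest in W_Res, and that of PER1 to ARNTL was lowest in W_Con.

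The piglets of a group also differed among themselves, and ARNTL was set against the other 7 measured clock genes over the 12 libraries on the log2(FPKM + 1) scale. NPAS2 followed ARNTL with Pearson's r = 0.71 (permutation test, two-sided p = 0.0104, adjusted p = 0.0726 over 7 relations) and Spearman's rho = 0.71 (permutation p = 0.0117, adjusted p = 0.0819). After subtraction of group means r was 0.79 (exact permutation within groups, p = 0.0123, adjusted p = 0.0864), with a positive sign in all 4 groups. Without W_Con3 and PW_Res3, the libraries farthest from the median of ARNTL, r was 0.51.

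CRY2 went the other way within groups, with r = -0.85 after subtraction of group means (exact permutation within groups, p = 0.0247, adjusted p = 0.0864) and a negative sign in all 4 groups. Over the 12 libraries as they are it was -0.33 (permutation p = 0.289, adjusted p = 0.404) with rho = -0.32 (permutation p = 0.306, adjusted p = 0.429), and -0.12 without the same 2 libraries. CRY1 had r = 0.50 (permutation p = 0.0985, adjusted p = 0.192; rho = 0.53, p = 0.0807, adjusted p = 0.282), 0.67 within groups with a negative sign in PW_Con (exact p = 0.0409, adjusted p = 0.0954) and 0.25 without the 2 libraries. DBP had r = -0.49 (permutation p = 0.110, adjusted p = 0.192; rho = -0.43, p = 0.172, adjusted p = 0.301), -0.65 within groups with a positive sign in PW_Con (exact p = 0.102, adjusted p = 0.178) and -0.37 without them.

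PER2 had r = -0.60 with ARNTL (permutation p = 0.0392, adjusted p = 0.137; rho = -0.45, p = 0.141, adjusted p = 0.301), and -0.53 within groups (exact permutation p = 0.265, adjusted p = 0.372). Without W_Con3 and PW_Res3 r was -0.15. Leaving out these libraries narrows the range of ARNTL, so the fall alone does not show that the relation rests on them. With single libraries left out r of PER2 ran from -0.72 to -0.44. PER1 had r = -0.12 (permutation p = 0.710, adjusted p = 0.828; rho = -0.15, p = 0.637, adjusted p = 0.743) and CLOCK r = -0.01 (permutation p = 0.967, adjusted p = 0.967; rho = -0.06, p = 0.868, adjusted p = 0.868), with -0.10 (exact p = 0.759, adjusted p = 0.759) and -0.38 (exact p = 0.373, adjusted p = 0.435) within groups. None of the 7 relations had an adjusted p under 0.05 over the 12 libraries, whereas without PW_Con3 those of NPAS2, CRY1, DBP and PER2 did.

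**Figure D4:**
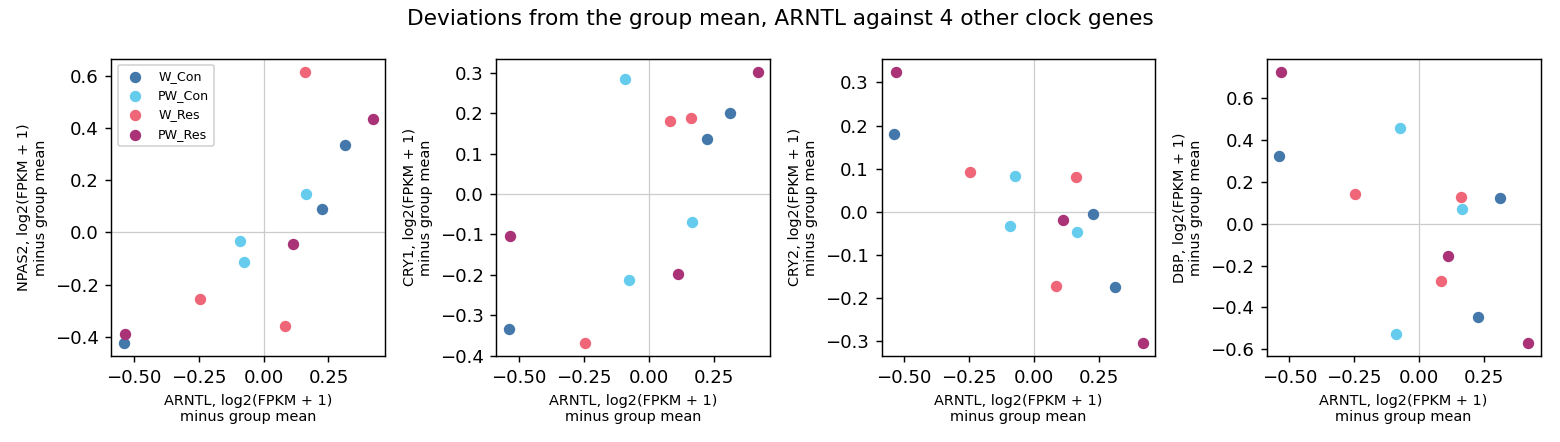
ARNTL (horizontal axes) against NPAS2, CRY1, CRY2 and DBP (vertical axes) in 12 libraries, each as log2(FPKM + 1) minus its group mean. Colours mark the 4 groups. NPAS2 lay high where ARNTL was high (r = 0.79) and CRY2 lay low (r = -0.85), with adjusted permutation p of 0.0864 each.

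A wider list of 18 genes of the loop and its modifiers was examined beside these, of which 16 were measured and 13 tested, with TEF and FBXL21 not matched. Under maternal resveratrol at 21 days, 2 of the 13 had an unadjusted P under 0.05 in limma, 1 higher and 1 lower, against 18.5% of all gene names, and 0 met the standard, against 4.77%. In weaning of control litters it was 2 of 13, against 15.3%, and in weaning of resveratrol litters 2 of 13, NFIL3 at 0.78 (0.30 with W_Res1 alone in its group) and BTRC at -0.50, against 17.6%. In the difference it was 1 of 13, FBXW11 at 0.74, against 13.7%.

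NFIL3, a repressor that binds the same sites as DBP, was at 19.6, 9.70 and 11.1 FPKM in W_Con and 10.9, 5.52 and 6.99 in W_Res, with overlap between them and a log2 fold change of -0.70 (SE 0.31, adjusted p = 0.255 in limma). It was -0.41 without W_Con1 and -0.22 with W_Res1 alone in its group, and the unadjusted P stayed under 0.05 in 6 of the 12 fits without 1 library. CSNK1D, the kinase that marks PER proteins for degradation, was at 26.1, 25.4 and 23.6 FPKM in W_Con and 32.7, 34.4 and 28.9 in W_Res, with a log2 fold change of 0.34 (SE 0.15, adjusted p = 0.265 in limma), whose unadjusted P stayed under 0.05 in 2 of the 12 fits without 1 library. In control litters CSNK1D was also higher after weaning, at 30.3, 37.1 and 37.1 FPKM in PW_Con, with a log2 fold change of 0.45 (SE 0.15, adjusted p = 0.195 in limma). W_Con is the reference of both comparisons of CSNK1D, as it is for PER1.

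With weaning averaged over both litter sets, 2 of the 13 genes had an unadjusted P under 0.05, against 19% of all gene names. BTRC, a ubiquitin ligase component which recognises phosphorylated PER proteins, was lower by a log2 fold change of -0.42 (SE 0.13, adjusted p = 0.148 in limma). CSNK1D was higher by 0.25 (SE 0.11, adjusted p = 0.239 in limma), with an unadjusted P under 0.05 in 5 of the 12 fits without 1 library. FBXW11, the paralog of BTRC, was at 5.38, 3.43 and 5.96 FPKM in W_Con and 2.78, 3.10 and 2.34 in PW_Con, a log2 fold change of -0.64 in control litters (SE 0.21, adjusted p = 0.182 in limma). All log2 fold changes of the wider list in the averaged comparison lay between -0.45 and 0.39, none past the standard.

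**Figure D5:**
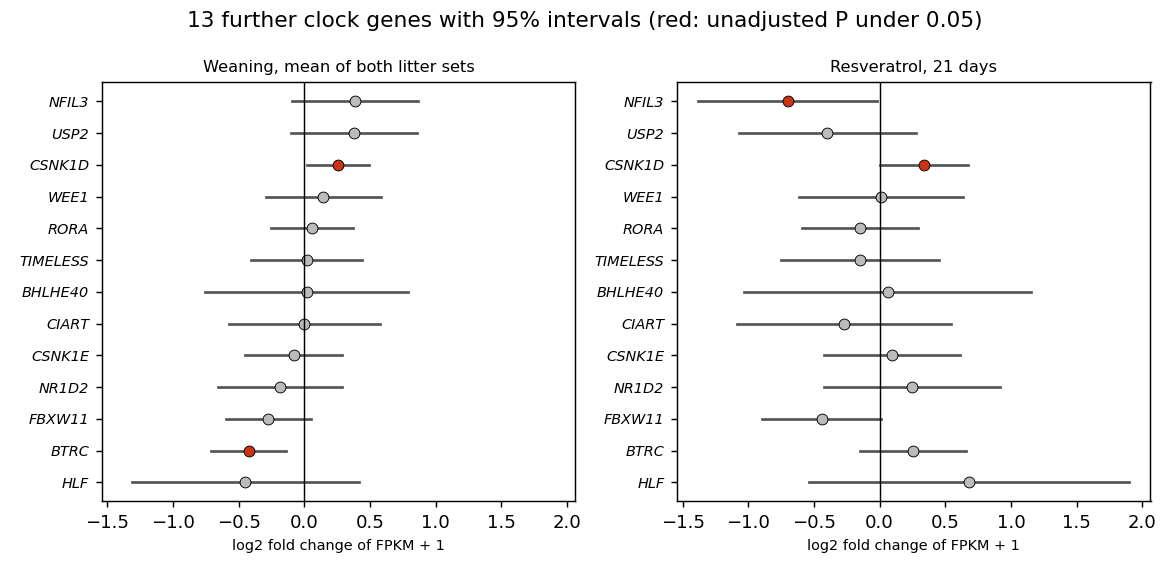
Log2 fold change of FPKM + 1 (horizontal axes) of 13 further clock genes (vertical axes), for weaning averaged over both litter sets and for maternal resveratrol at 21 days, with 95% intervals from limma. Red points have an unadjusted P under 0.05, BTRC at -0.42 and CSNK1D at 0.25 on the left and NFIL3 at -0.70 and CSNK1D at 0.34 on the right.

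Because PER1 also responds to glucocorticoids and cAMP, 16 genes of these responses were examined, of which 13 were measured and tested. In weaning of control litters 2 of the 13 had an unadjusted P under 0.05, FOS and EGR1 (EGR1 in 5 of the 12 fits that left out 1 library), against 15.3% of all gene names, and 3 had groups without overlap, all higher in PW_Con, against 12.5%. FOS, an immediate early gene, was at 7.96, 16.8 and 14.4 FPKM in W_Con, 28.0, 27.1 and 24.6 in PW_Con, 7.47, 13.0 and 5.11 in W_Res and 25.7, 26.9 and 20.8 in PW_Res. All 28-day libraries lay above all 21-day libraries, and the averaged log2 fold change was 1.26 (SE 0.22, adjusted p = 0.0588 in limma), past the standard. FOS overlapped between W_Res and W_Con. The others without overlap were DUSP1, at 17.5, 14.2 and 16.5 FPKM in W_Con and 30.1, 28.8 and 22.3 in PW_Con (log2 fold change 0.71, SE 0.33, adjusted p = 0.336 in limma), and HSD11B2 (log2 fold change 0.93, SE 0.52, adjusted p = 0.437 in limma). In weaning of resveratrol litters 1 of the 13, FOS, had an unadjusted P under 0.05, against 17.6%, and 3 had groups without overlap, all higher in PW_Res (FOS, JUNB and ATF3), against 3.98% of all gene names higher in this way. The log2 fold changes there were 0.09 for DUSP1 and -0.03 for HSD11B2. FKBP5, a glucocorticoid target, was at 12.0, 12.6 and 19.5 FPKM in W_Con and 10.6, 17.3 and 15.1 in PW_Con. KLF9, another, was at 3.29, 1.95 and 2.56 in W_Con and 2.14, 2.75 and 2.18 in PW_Con. Both overlapped between these groups. ZBTB16 of the same list overlapped too, at 0.579, 0.574 and 0.201 FPKM in W_Con and 0.519, 3.06 and 1.05 in PW_Con. Its log2 fold change was 0.69 (SE 0.38, adjusted p = 0.427 in limma). Of the 13 genes, 7 were higher and 6 lower in weaning of control litters, with a median of 0.38. The part of these responses in the PER1 difference was not tested.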

How the data were processed

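Total RNA of 12 jejunum samples was sequenced as poly(A) libraries, paired-end, on an Illumina HiSeq. The submitters' processing notes name Bowtie 0.12.2, HISAT2 2.0 and StringTie 1.3.0 and the build Sscrofa10.2 (they also list mm8), while the study's methods name TopHat. The authors deposited FPKM per assembled locus from StringTie and Ballgown, with no counts, so that no counting interval can be given. Of 41264 loci, 17650 (42.8%) carried no gene name and were not used. No value column was left unmatched.

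FPKM were summed by gene name, and names with a mean of at least 0.5 FPKM (12886 of 17049) were fitted as log2(FPKM + 1) (a scale on which the added 1 understates fold changes of low genes) with 4 group means in limma 3.58.1 (lmFit, eBayes with trend, R 4.3.3), with Benjamini-Hochberg adjustment over all names. The depth behind single genes is unknown. Relations used permutation tests (100000 resamples, or exact within groups). The fit was tested on simulated data. Replicates are separate piglets. By the study's methods a male was taken from each of the same litters at both ages, so control piglets of both ages may be littermates. The litter of each library was not known, and the fit was not paired by litter.

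The members and lists were chosen with earlier results of these data known. All members are given with their levels, with fold changes where the unadjusted P was under 0.05 or groups did not overlap, and a few others beside them. FKBP5, KLF9, ZBTB16, DUSP1 and HSD11B2 were named after their values were seen. Another 2 genes, first meant for the wider list, are not in its counts and not reported here. Members under Ensembl identifiers were added to the 3 found by symbol. Coordinates and sequences are not given here. Alternatives were a pseudocount of 0.1, no filter or a minimum of 5 FPKM, median-of-ratios and quantile scaling, eBayes without trend, a replicate block, fitting only the groups compared, the locus with the highest mean, the Ballgown model and leaving out each library. Leaving out W_Res2 and W_Res3 together was added after the data were seen.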

Additional observations from a re-analysis of the deposited data

Results flagged for a closer look

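ARNTL was singled out because its weaning effect differed between the litter sets by a test of the difference itself, at 0.92 on the log2(FPKM + 1) scale (SE 0.40, adjusted p = 0.341 in limma, n = 3 piglets in each of 4 groups). ARNTL was lower after weaning in control litters by group means, from 5.65 ± 1.94 to 3.83 ± 0.492 FPKM, and higher in resveratrol litters, from 4.03 ± 0.721 to 6.32 ± 2.30 FPKM (SD, n = 3 each), with overlapping libraries in both. It was the 1 clock gene of 7 with an unadjusted P under 0.05, against 13.7% of all gene names, so that the count is at the background, and the result does not pass the adjustment. The unadjusted P was above 0.05 in the Ballgown model (0.68), with the replicate block and in 8 of the 12 fits without 1 library. The study's standard was met with a pseudocount of 0.1 (1.08), with median-of-ratios (1.09) or quantile (1.11) scaling and in 4 of those 12 fits. With quantile scaling the adjusted p was 0.316 in limma. With W_Res1 alone in its group the difference was 0.84.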

How the results depend on the processing

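At the study's standard, 399 gene names differed with weaning in control litters, 636 in resveratrol litters, 615 between diets at 21 days, 200 at 28 days, 1000 in the difference of weaning effects and 183 in averaged weaning. A pseudocount of 0.1 gave 783, 1237, 1185 and 456 for the first 4 and 591 for averaged weaning. A minimum of 5 FPKM gave 219, 212, 250, 112, 364 and 118, with fewer genes tested. Quantile normalization gave 410 for weaning in resveratrol litters, and the Ballgown model 248 there, 197 at 21 days and 318 for the difference. With each library left out the counts were 342 to 510, 389 to 1095, 414 to 1017, 196 to 357, 630 to 1363 and 153 to 255. The lowest and highest of the second came without W_Res2 and W_Res1, the 1017 and 939 at 21 days without W_Res1 and W_Res3, the 357 without PW_Res1 and the 630 without W_Con3. Median-of-ratios and quantile scaling moved the share of higher calls from 20.0% to 41.9% and 44.6% in weaning of resveratrol litters, from 69.9% to 59.4% and 54.4% at 21 days and from 23.3% to 42.8% and 45.7% for the difference. Median-of-ratios scaling moved the median of all genes by 0.17 in weaning of resveratrol litters and by 0.15 in the difference. The Ballgown model turned the direction of DBP (0.048) in weaning of resveratrol litters and of PER2 at 21 days (-0.032), ARNTL at 28 days (-0.0076), NPAS2 at 28 days (-0.29) and CRY2 in weaning of resveratrol litters (0.26), and PER2 also turned in the other comparisons except control weaning, CRY2 in control weaning (0.016), the difference (0.18) and averaged weaning (0.11), and ARNTL (-0.10) and NPAS2 (0.084) in averaged weaning. Median-of-ratios rescaling turned CRY2 in the same 4 comparisons (0.0043 to 0.027). The cause was not tested.

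For relations with ARNTL, r of CLOCK became 0.082 with a pseudocount of 0.1 and 0.066 with median-of-ratios scaling, which also gave 0.016 for PER1 and 0.77 for NPAS2 (adjusted permutation p = 0.0274, and 0.0106 to 0.258 with each library left out, under 0.05 without W_Res2, PW_Con3 or PW_Res2). With each library left out r ran from -0.217 to 0.129 for CLOCK, 0.378 to 0.748 for CRY1, -0.446 to -0.205 for CRY2, -0.732 to -0.357 for DBP, 0.633 to 0.844 for NPAS2, -0.390 to 0.0283 for PER1 and -0.722 to -0.442 for PER2. The adjusted permutation p was also under 0.05 for PER2, CRY1 and DBP without PW_Con3 and for PER2 without W_Res2. Same-numbered libraries had correlations of deviations from -0.257 to 0.109, and in no comparison did every sample correlate best with its own number. With 3 libraries per group, these values cannot show whether same-numbered piglets share a litter. With the replicate block the counts were 401, 641, 640, 209, 1059 and 188, and EGR1 in control weaning no longer met the standard in limma, while the unadjusted P rose above 0.05 for the ARNTL difference and for CSNK1D at 21 days and in averaged weaning. FPKM without counts limit what can be said of CLOCK and DBP.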

Other observations

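Over the 12 libraries, the genes most like ARNTL among 7741 symbols whose mean reached 1 FPKM were TMEM236 (r = 0.90), ALDH9A1 (0.88), LYN (0.84), NCOA7 (0.83) and UGDH (0.83). Those most like DBP were PCK1, the cytosolic enzyme of gluconeogenesis, with r = 0.91, TRAF3IP1 (0.88), COX7A1 (0.87), KLHL3 (0.85) and KCNIP2 (0.85). Those most like PER1 were PLPP2 (0.89), CYHR1 (0.89), AP5Z1 (0.88), C1orf159 (0.87) and RFX1 (0.87). These are the highest of many coefficients on 12 libraries that share tissue and scaling, and are a description with no test. The lists for DBP and PER1 were made after the data were seen, because NR1D1 was not matched.

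Among the glucocorticoid and cAMP response genes, EGR1 was at 0.331, 4.15 and 3.74 FPKM in W_Con and 13.9, 3.03 and 9.07 in PW_Con, a log2 fold change of 1.41 (SE 0.63, adjusted p = 0.318 in limma), 0.32 in resveratrol litters and 0.77 in control litters without W_Con1. Its unadjusted P in control litters stayed under 0.05 in 5 of the 12 fits that left out 1 library and in 5 of the 11 other settings. JUN had a log2 fold change of 0.42 in averaged weaning (SE 0.19, adjusted p = 0.261 in limma) and 0.28 without PW_Res1, and its unadjusted P stayed under 0.05 in 5 of the 12 fits without 1 library. JUNB was listed at 0 in W_Con3, W_Res1, PW_Con1 and PW_Con3 and at 26.3 to 74.4 FPKM in the other libraries.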
